A study of Mus musculus with 18 samples.

Results

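Transcripts of 36 genes that mark tumour macrophages and their monocyte precursors were followed across 18 bulk RNA-seq libraries of mouse tumours. The tumours were grown from MC38-OVA, a colon carcinoma line engineered to make the model antigen ovalbumin. The 36 genes were chosen by symbol from a list of known markers, with earlier results of these data known. All 36 were found among the 21015 genes of the deposited table. The list holds 4 genes typical of monocytes (Ly6c2, Ccr2, Plac8 and Vcan) and 32 genes typical of mature macrophages. All 36 were abundant enough to be among the 16125 genes tested.

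The tumours had grown in hosts lacking Adra2a (labelled ADRA2A-/-, here KO) or in wild-type hosts (WT), and there were 3 libraries in each of 6 groups: KO-Clonidine, KO-Guanabenz, KO-Control, WT-Clonidine, WT-Guanabenz and WT-Control. Adra2a encodes an alpha2-adrenergic receptor, and clonidine and guanabenz are agonists of that receptor class. Hosts were 10 weeks old, received drug or PBS daily into the peritoneal cavity, and gave their tumours 7 days after treatment, at doses that the labels leave out. The control libraries carry the treatment entry Untreated, although the protocol names PBS, and the KO-Guanabenz libraries carry the entry Untreated too. Groups were taken from the titles, so every KO-Guanabenz value below rests on titles that conflict with another label. The tumour cells keep their own intact genome, so only host cells lack Adra2a, and the labels do not say how the deletion was made. The labels also do not say that the libraries come from separate animals, so p-values measure the spread between libraries, which may be partly technical.

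Adra2a itself was scarce, at 0.0917 to 0.293 CPM (counts scaled to a library total of 1e6) in the 9 KO libraries and 0.286 to 0.589 CPM in the 9 WT libraries, so the ranges overlapped slightly. Library totals, in units of 1e6 counts, ran from 54.7 to 491.1 with a median of 92.4. Transcripts of Y-linked genes were present in 0 of 3 KO-Clonidine libraries, 2 of 3 in KO-Guanabenz, KO-Control, WT-Clonidine and WT-Guanabenz, and 3 of 3 WT-Control libraries. Libraries with and without them thus occurred together in the groups at 2 of 3. If they mark male hosts, sex was mixed in those groups and unbalanced between groups. Epithelial markers (Epcam, Krt8, Krt18 and Krt19) summed to only 0.616 to 3 CPM in every library, although the tumour line is a carcinoma, whereas 5 fibroblast markers summed to 8740 to 16200 CPM.

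Tumour macrophages largely derive from blood monocytes. Monocytes carrying Ly6C on their surface follow CCL2 through its receptor CCR2 into the tumour, where the growth factor CSF1, acting through the receptor encoded by Csf1r, and the transcription factors PU.1 (encoded by Spi1) and MAF shape them into macrophages. Mature cells gain F4/80 (encoded by Adgre1), complement C1q, receptors for antibodies and for dying cells, and a large set of lysosomal proteases. In bulk tissue, fewer cells of a type and less RNA per cell cannot be told apart.

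Ly6c2 is the gene behind the classical monocyte surface marker, and its sequence sets a limit on what its counts can show. Its coding sequence and that of the neighbouring paralogue Ly6c1, which endothelial cells and lymphocytes also express, are 396 bases each and differ at 9 positions (97.7% identity). Coding bases 6 to 65 on chromosome 15 (GRCm38) hold 6 of these differences, shown in capitals, and the rest of that stretch is the same in both genes.
Ly6c2: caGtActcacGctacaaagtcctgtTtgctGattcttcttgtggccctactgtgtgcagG
Ly6c1: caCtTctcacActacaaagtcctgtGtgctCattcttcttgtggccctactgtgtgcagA
Of the 31-base words of the Ly6c2 transcripts, 21.4% also occur in Ly6c1, so part of the Ly6c2 count depends on how reads were divided between the genes. Ly6c1 was measured at 17.5 to 45.6 CPM and Ly6c2 at 4.03 to 15.5 CPM, so the rarer gene is the one of interest here.

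Promoters of the genes were searched for AGGAAGT on either strand, the core recognised by PU.1, the master regulator of the macrophage lineage, and for CACGTG, the E-box bound by lysosomal and other basic helix-loop-helix factors, which reads the same on both strands. RefSeq windows on GRCm38.p6, from 250 bases before to 50 bases after the transcription start, were matched for 28 of the 36 genes. The PU.1 core was found in 10 of the 28 genes (35.7%) against 10.7% of all 27025 genes with a window, and the E-box in 2 of the 28, Ctsd and Lgmn (7.14%), against 8.09% of all genes. These are letter matches, not binding sites. The 100 bases before the start are shown for the Fc receptor gene Fcgr4 and the lysosomal protease gene Ctsd, to which the comparisons below return, and for 3 further genes with the PU.1 letters; capitals mark the match, and each is written along the gene's own strand.
Fcgr4 promoter, chr1:171018826-171018925, plus strand, PU.1 core: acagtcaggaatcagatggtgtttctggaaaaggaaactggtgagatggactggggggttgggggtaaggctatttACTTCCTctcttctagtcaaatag
Ms4a6c promoter, chr19:11469268-11469367, plus strand, PU.1 core: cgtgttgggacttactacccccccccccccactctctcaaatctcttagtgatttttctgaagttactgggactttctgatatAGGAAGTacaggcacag
C1qb promoter, chr4:136886201-136886300, minus strand, PU.1 core: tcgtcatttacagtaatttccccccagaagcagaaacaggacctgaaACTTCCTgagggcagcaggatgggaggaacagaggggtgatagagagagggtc
Lyz2 promoter, chr10:117282273-117282372, minus strand, PU.1 core: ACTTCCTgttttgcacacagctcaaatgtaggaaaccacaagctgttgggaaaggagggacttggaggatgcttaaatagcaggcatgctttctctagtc
Ctsd promoter, chr7:142387828-142387927, minus strand, E-box: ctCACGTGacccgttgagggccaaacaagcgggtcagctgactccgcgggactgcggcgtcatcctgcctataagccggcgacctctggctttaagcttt

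The most abundant transcripts of the 36 were those of mature macrophage genes, and 3 of the 4 monocyte genes were the least abundant. Per kilobase of the longest coding transcript, averaged over 18 libraries, the highest level was that of Apoe, a lipid carrier (3910 CPM per kb), followed by the lysozyme gene Lyz2 (1860 CPM per kb) and the C1q subunit genes C1qa (851 CPM per kb) and C1qb (826 CPM per kb). Ctss, a lysosomal protease of antigen presentation, stood at 742 CPM per kb, C1qc at 584 CPM per kb and Ctsd at 536 CPM per kb. C1qa and C1qb differed by less than their SD between libraries, 69.1 and 54.6 CPM per kb. Csf1r reached 116 CPM per kb and Adgre1 73.2 CPM per kb. The 3 lowest places belonged to monocyte genes, with Plac8 at 11.5, Ly6c2 at 8.62 and Ccr2 at 4.88 CPM per kb, whereas Vcan, a matrix proteoglycan of monocytes that fibroblasts and tumour cells also make, stood at 28.7 CPM per kb, above the macrophage genes Msr1, Mertk and Gpnmb. Apoe, Lyz2 and Spp1 are likewise not restricted to macrophages, and this is not a full list. Bulk counts do not show which cells made the other transcripts, Ctsd among them. Of the 31-base words of Lyz2, 32.8% are shared with Lyz1.

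**Figure D1:**
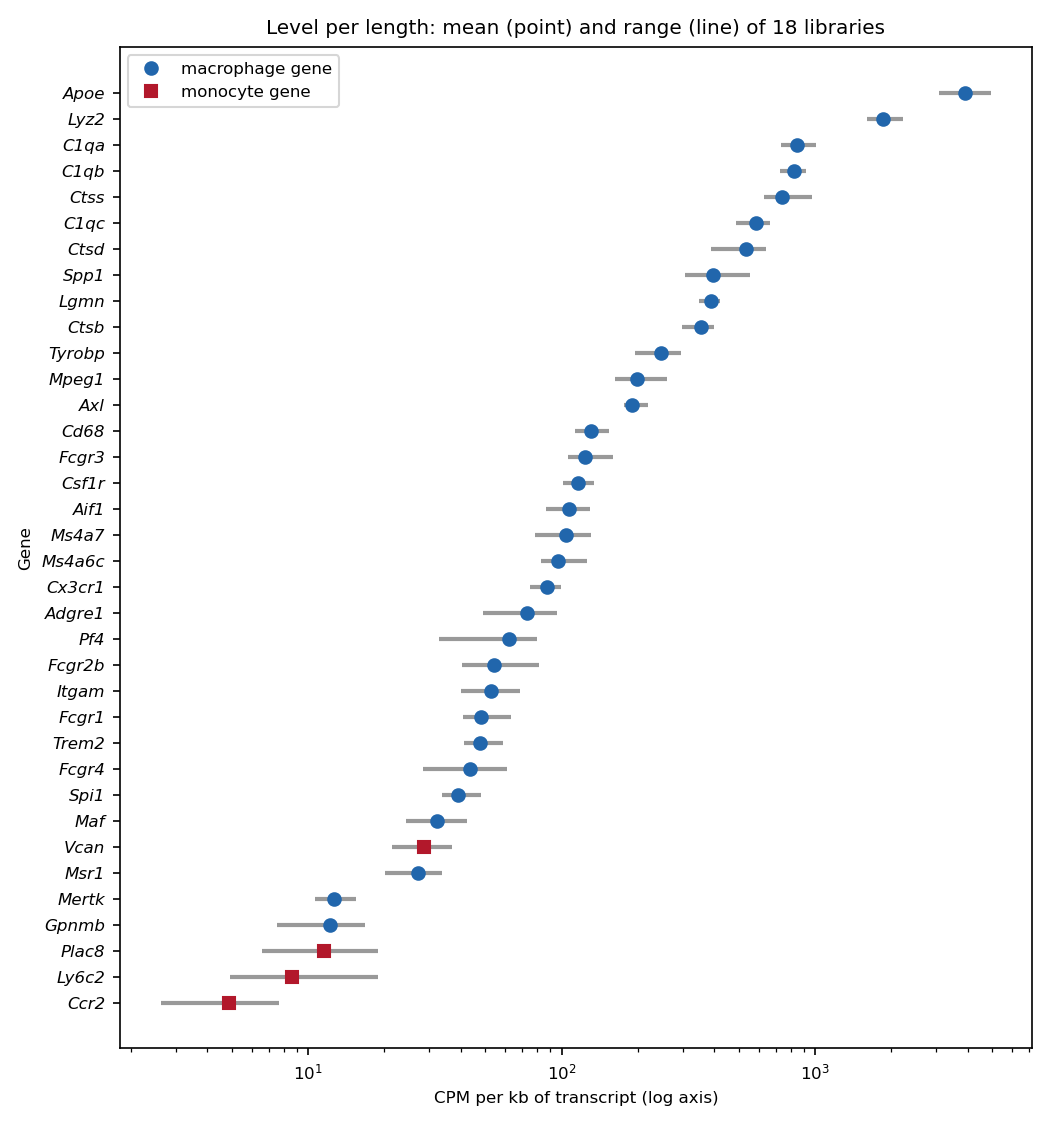
Level of each gene per kilobase of transcript (CPM per kb, log axis), with the mean over 18 libraries as a point and the lowest and highest library as a line. Apoe lies highest at 3910 CPM per kb, and 3 of the 4 monocyte genes, drawn as red squares, occupy the lowest places.

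Ly6c2, Plac8 and Ccr2 also varied more between libraries of one group than any macrophage gene on the list. The SD of log2 CPM within groups was 0.6 for Ly6c2, 0.52 for Plac8 and 0.38 for Ccr2, with a median of 0.45 over the 4 monocyte genes, against a median of 0.14 over the 32 macrophage genes and 0.14 over all tested genes. Lgmn, a lysosomal endopeptidase, varied least, with an SD of 0.08.

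Ly6c2 was measured at 8.3, 5.3 and 4.13 CPM in KO-Clonidine, 5.58, 7.14 and 6.07 CPM in KO-Guanabenz, and 4.91, 7.39 and 7.37 CPM in KO-Control. In WT hosts it was at 15.5, 10.3 and 4.66 CPM with clonidine and 4.03, 5.37 and 7.37 CPM with guanabenz, against 4.39, 14.2 and 5.65 CPM in WT-Control. The groups overlapped throughout, and the high WT-Control value came from replicate 2 alone.

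Plac8, which encodes a small cysteine-rich protein abundant in inflammatory monocytes, was at 14.7, 9.36 and 22.3 CPM in KO-Clonidine, 11.9, 17.6 and 14.8 CPM in KO-Guanabenz and 9.53, 16.4 and 11.1 CPM in KO-Control. The WT libraries had 18.9, 15.2 and 11.6 CPM with clonidine and 8.03, 10.6 and 18.1 CPM with guanabenz, against 10.1, 23.2 and 9.67 CPM in WT-Control. WT-Control 2 was again the highest of its group, and no pair of groups separated.

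Ccr2 was at 20, 29.9 and 15.1 CPM in KO-Clonidine, 29.9, 28.7 and 44 CPM in KO-Guanabenz and 27.5, 18.1 and 31.5 CPM in KO-Control. With clonidine the WT libraries had 33.4, 39.9 and 28.7 CPM and with guanabenz 29.9, 33.8 and 24.8 CPM, against 15, 22.8 and 29.6 CPM in WT-Control. All WT-Clonidine libraries but the lowest exceeded every WT-Control library, so those groups overlapped by a single library.

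Vcan was at 334, 276 and 353 CPM in KO-Clonidine, 392, 461 and 322 CPM in KO-Guanabenz and 267, 346 and 327 CPM in KO-Control. It was at 362, 412 and 416 CPM in WT-Clonidine and 412, 358 and 391 CPM in WT-Guanabenz, against 302, 372 and 312 CPM in WT-Control. Each drug group overlapped with the controls of its host.

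To set monocyte genes against macrophage genes, each gene's log2 CPM was centred on its mean over 18 libraries, and the mean of the 32 macrophage genes was subtracted from the mean of the 4 monocyte genes. In KO hosts the difference was -0.16 ± 0.2 with clonidine and 0.12 ± 0.17 with guanabenz, against -0.07 ± 0.2 in KO-Control (SD, n = 3 each). In WT hosts it was 0.24 ± 0.31 with clonidine and -0.06 ± 0.18 with guanabenz, against -0.06 ± 0.45 in WT-Control. The shift of 0.3 between WT-Clonidine and WT-Control was about the size of the SD between libraries, 0.27, and WT-Control 2 alone stood at 0.44, level with the highest WT-Clonidine library. The macrophage mean hardly moved, with group means between -0.04 and 0.04, so the spread of the difference came from the monocyte genes.

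Among the mature markers, Csf1r was at 557, 609 and 484 CPM in KO-Clonidine, 629, 590 and 552 CPM in KO-Guanabenz and 542, 476 and 561 CPM in KO-Control. In WT hosts it was at 561, 508 and 514 CPM with clonidine and 537, 576 and 493 CPM with guanabenz, against 523, 532 and 602 CPM in WT-Control. All 6 groups overlapped for this growth factor receptor gene, and 14.6% of its 31-base words are shared with Hmgxb3.

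Adgre1, whose product F4/80 is the usual surface marker of mouse macrophages, was at 249, 217 and 205 CPM in KO-Clonidine, 272, 244 and 273 CPM in KO-Guanabenz and 240, 159 and 231 CPM in KO-Control. The WT libraries had 309, 252 and 240 CPM with clonidine and 240, 254 and 211 CPM with guanabenz, against 195, 219 and 256 CPM in WT-Control. KO-Guanabenz lay just above KO-Control throughout, and the other drug groups overlapped with their controls.

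C1qa, which encodes a chain of the complement recognition protein C1q, was at 944, 886 and 883 CPM in KO-Clonidine, 966, 925 and 861 CPM in KO-Guanabenz and 923, 762 and 830 CPM in KO-Control. With clonidine the WT libraries had 1050, 842 and 812 CPM and with guanabenz 792, 927 and 817 CPM, against 849, 906 and 954 CPM in WT-Control. No pair of groups separated.

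Mertk, a receptor gene for the uptake of dying cells, was at 53.2, 62.4 and 65.3 CPM in KO-Clonidine, 54.8, 54.4 and 53.6 CPM in KO-Guanabenz and 56.2, 52.9 and 51.3 CPM in KO-Control. It was at 51.4, 48.5 and 59.1 CPM in WT-Clonidine and 66.5, 49.6 and 52.2 CPM in WT-Guanabenz, against 49.4, 48.9 and 45.7 CPM in WT-Control. WT-Guanabenz lay just above WT-Control, and the other drug groups overlapped with their controls.

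Trem2, a lipid-sensing receptor gene, was at 49.3, 64.1 and 47.5 CPM in KO-Clonidine, 53.3, 49.3 and 44.8 CPM in KO-Guanabenz and 52.3, 51.2 and 56.1 CPM in KO-Control. Its WT values were 55.2, 48.4 and 50.3 CPM with clonidine and 44.9, 54.3 and 48.1 CPM with guanabenz, against 52.5, 51 and 59.2 CPM in WT-Control. The groups overlapped throughout.

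Cd68, a lysosomal glycoprotein gene, was at 149, 189 and 165 CPM in KO-Clonidine, 164, 156 and 151 CPM in KO-Guanabenz and 153, 176 and 154 CPM in KO-Control. Its WT values were 177, 168 and 144 CPM with clonidine and 138, 165 and 154 CPM with guanabenz, against 159, 147 and 163 CPM in WT-Control. These groups overlapped as well.

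Apoe was at 5440, 6430 and 6480 CPM in KO-Clonidine, 6920, 6850 and 4620 CPM in KO-Guanabenz and 5010, 5450 and 4770 CPM in KO-Control. In WT hosts it was at 5270, 4320 and 5530 CPM with clonidine and 4530, 4980 and 5830 CPM with guanabenz, against 5730, 5720 and 5150 CPM in WT-Control. High Apoe values were thus found in some KO drug libraries, but no drug group lay wholly outside its controls.

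Spp1, which encodes the secreted phosphoprotein osteopontin, was at 575, 587 and 708 CPM in KO-Clonidine, 571, 637 and 544 CPM in KO-Guanabenz and 644, 695 and 585 CPM in KO-Control. The WT libraries had 464, 501 and 505 CPM with clonidine and 673, 496 and 515 CPM with guanabenz, against 507, 836 and 683 CPM in WT-Control. WT-Clonidine alone lay wholly below its controls, by 2 CPM at the nearest pair, and 14.3% of the 31-base words of Spp1 are shared with the gene model Gm42793, which has no row in the table.

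**Figure D2:**
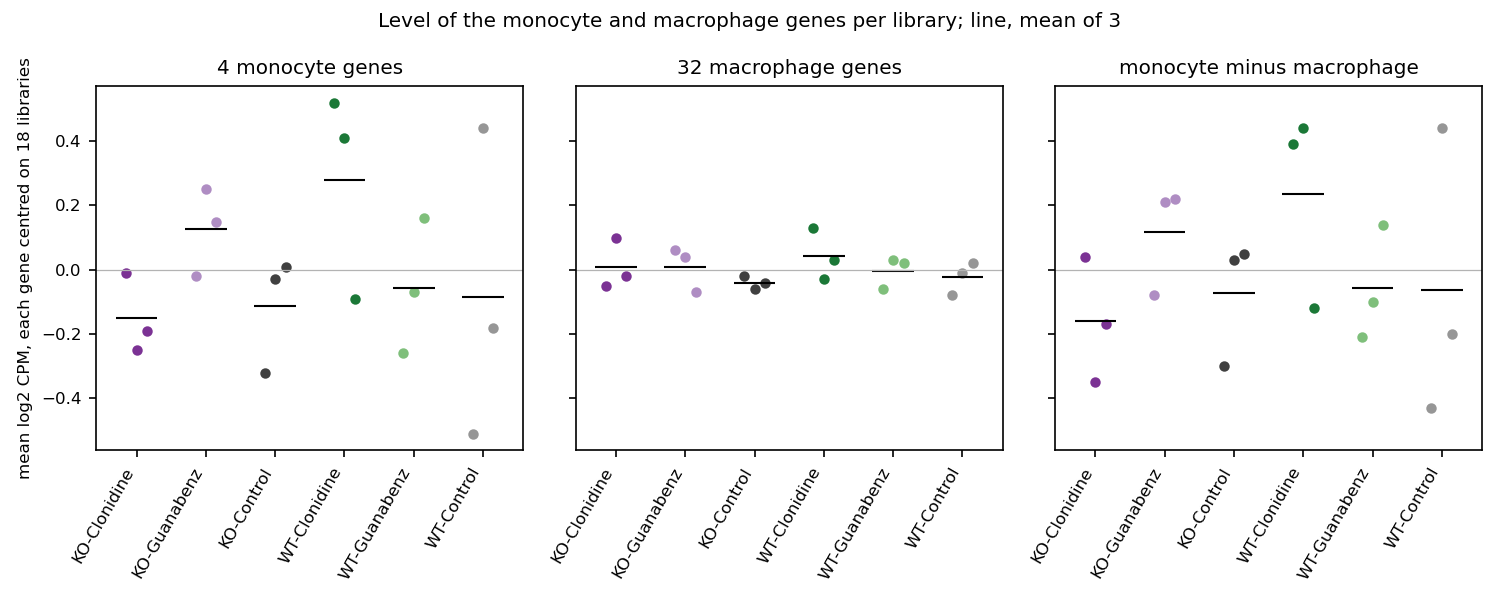
Mean centred log2 CPM of the 4 monocyte genes, the 32 macrophage genes and their difference, by group; points are libraries and lines are means of 3. The macrophage genes stay within a narrow band (group means -0.04 to 0.04) while the monocyte genes scatter between libraries of the same group.

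**Figure D3:**
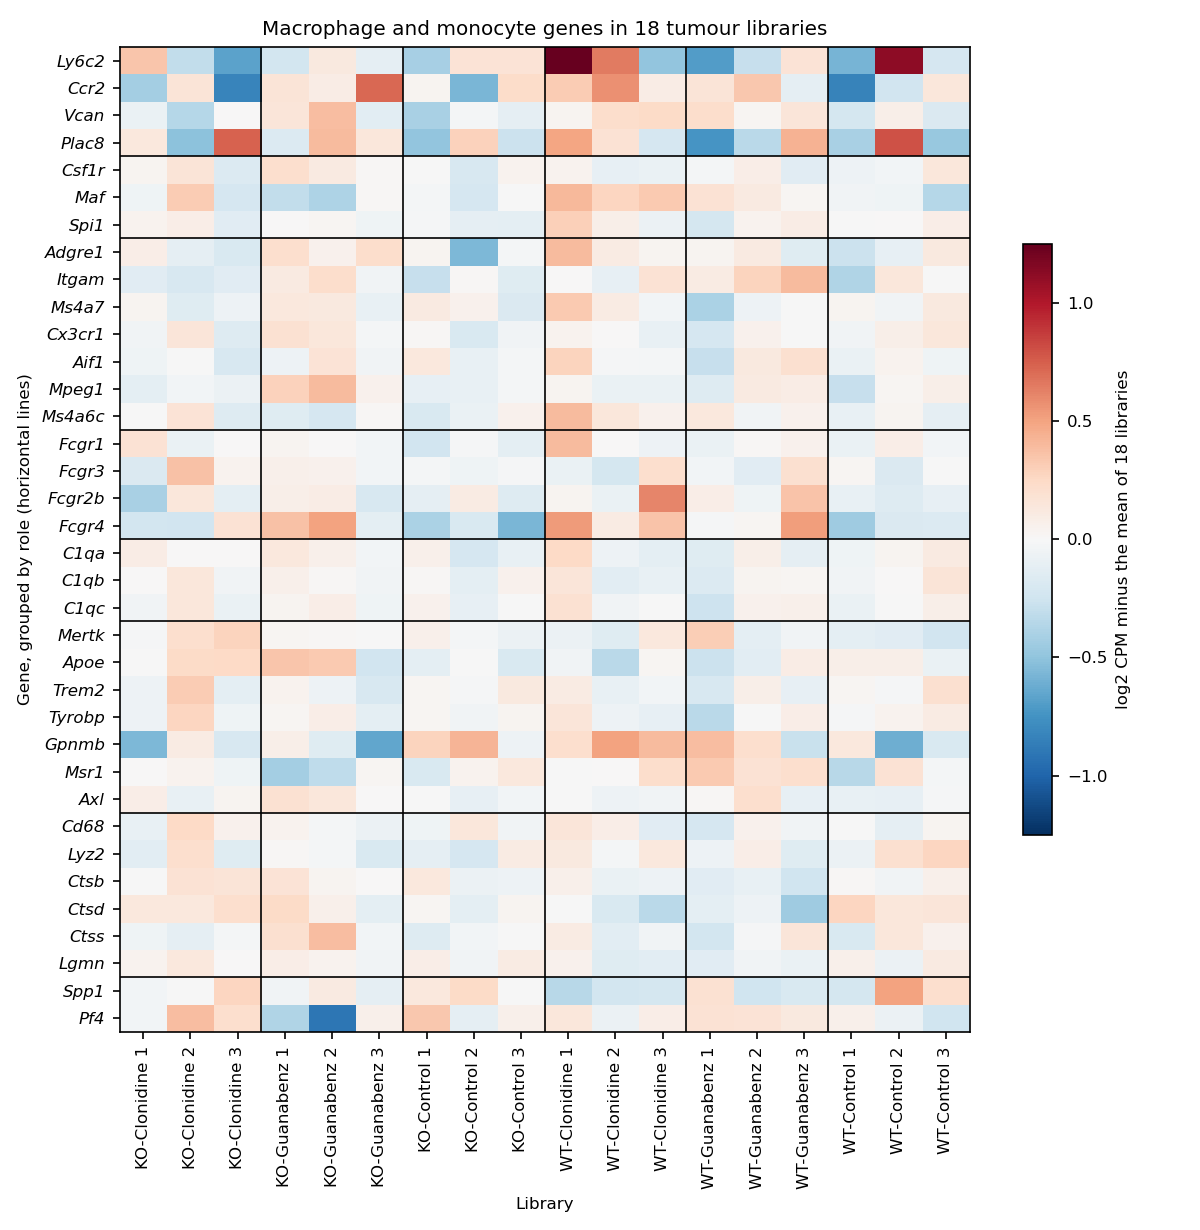
Log2 CPM of each gene minus its mean over 18 libraries, with genes grouped by role and libraries by group; red is above and blue below the gene's mean. The strongest colours lie in the monocyte rows Ly6c2, Plac8 and Ccr2 and in Fcgr4, Gpnmb and Pf4, and no group shows one colour across all macrophage rows.

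In hosts with an intact receptor gene, clonidine was compared with PBS control. Among the genes whose groups did not overlap, Fcgr4, encoding an activating receptor for IgG, and Maf were higher with clonidine. Ctsd and Spp1 were lower, Spp1 only by a narrow margin. edgeR called 0 of the 36 genes at an adjusted p under 0.05, as it called 0% of all 16125 tested genes. DESeq2 and limma-voom each called 3 of the 36 (8.33%), Fcgr4, Maf and Ctsd, where DESeq2 called 353 of all genes (2.65% of those it gave an adjusted p) and limma-voom 773 (4.79%). Later DESeq2 percentages of all genes likewise count only the genes to which DESeq2 gave an adjusted p. An unadjusted p under 0.05 was found for 7 of the 36 genes and 2079 of all genes (12.9%). Over the 36 genes the median log2 change was 0.07, with 23 above 0, against 0 over all tested genes. By role it was 0.31 for the monocyte genes (4 of 4 above 0), 0.24 for the Fc receptors (4 of 4), 0.11 for surface and cytoplasmic markers (6 of 7), 0.03 for uptake genes (4 of 7), 0 for C1q (1 of 3) and -0.05 for lysosomal genes (1 of 6).

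Maf was at 269, 244 and 255 CPM in WT-Clonidine against 197, 195 and 159 CPM in WT-Control, a log2 change of 0.48 (SE 0.12, adjusted p = 0.14 in edgeR). Fcgr4 was at 76.4, 56.8 and 67.9 CPM in WT-Clonidine against 39, 46.7 and 47.1 CPM in WT-Control, a log2 change of 0.6 (SE 0.18, adjusted p = 0.18 in edgeR). For either gene every clonidine library lay above every control library. The adjusted p of Maf was 0.017 in DESeq2 and 0.025 in limma-voom, and that of Fcgr4 was 0.037 in DESeq2 and 0.048 in limma-voom.

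Ctsd, the gene of the aspartic protease cathepsin D, was at 1130, 992 and 898 CPM in WT-Clonidine against 1360, 1250 and 1260 CPM in WT-Control, a log2 change of -0.36 (SE 0.11, adjusted p = 0.18 in edgeR, 0.044 in DESeq2 and 0.04 in limma-voom). Spp1 had a log2 change of -0.46 (SE 0.15, adjusted p = 0.21 in edgeR). All control libraries lay above all clonidine libraries for both genes. Part of Ctsd (33.2% of its 31-base words) is shared with the gene model Gm49369, which has no row in the table.

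Ccr2 had a log2 change of 0.59 (SE 0.27, adjusted p = 0.36 in edgeR) and Gpnmb, a glycoprotein gene of lipid-laden macrophages, 0.56 (SE 0.22, adjusted p = 0.29 in edgeR). Gpnmb was at 50.8, 62.1 and 57.6 CPM in WT-Clonidine against 48.1, 28.7 and 38.5 CPM in WT-Control. The log2 change was 0.27 for Vcan (SE 0.13), 0.34 for Ly6c2 (SE 0.42) and 0.1 for Plac8 (SE 0.37), and none passed. Without WT-Clonidine 1 the Ly6c2 change was -0.1, and without WT-Control 2 it was 1.01, so single libraries set its direction and size. Groups did not overlap for 7 of the 36 genes: Fcgr2b, Fcgr4, Maf, Gpnmb and Ms4a6c were higher with clonidine, and Spp1 and Ctsd lower. Over all tested genes 20.9% did not overlap, a share close to 7 of 36.

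No difference between WT-Clonidine and WT-Control was called for the core macrophage genes. The log2 change was -0.07 for Csf1r (95% interval -0.26 to 0.13), 0 for C1qa (-0.2 to 0.2) and 0.06 for Cd68 (-0.14 to 0.26), so for these 3 genes the intervals leave room for changes of at most 0.26 in either direction. For Adgre1 it was 0.26 (-0.04 to 0.56), for Mertk 0.14 (-0.07 to 0.36), for Trem2 -0.08 (-0.31 to 0.14) and for Apoe -0.14 (-0.43 to 0.15), and these intervals hold 0 as well as moderate changes.

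Markers of other cell types were also set beside these groups, and edgeR called none of them. The leukocyte gene Ptprc was at 161 to 177 CPM in WT-Clonidine and 114 to 158 CPM in WT-Control, and 6 T cell genes summed to 28.9 to 38.6 CPM in WT-Clonidine and 13.9 to 22.3 CPM in WT-Control. The 4 mast cell genes summed to 6.75 to 17.4 CPM in WT-Clonidine and 2.88 to 5.41 CPM in WT-Control, and 4 endothelial genes to 183 to 199 CPM in WT-Clonidine and 151 to 172 CPM in WT-Control. In each of these 4 sets the WT-Clonidine range lay above the WT-Control range. The ranges overlapped for the NK cell, B cell, neutrophil, dendritic cell, platelet, fibroblast, epithelial, skeletal muscle and erythroid sets. Of the endothelial genes, Vwf was not higher with clonidine (log2 change -0.03, SE 0.18), while Pecam1, Cdh5 and Kdr were. The part of other cell types in the changes of Fcgr4, Maf and the monocyte genes was not tested.

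In KO hosts, KO-Clonidine against KO-Control gave 0 of the 36 genes at an adjusted p under 0.05 in edgeR, DESeq2 and limma-voom, and 0 at an unadjusted p under 0.05, where 890 of all genes lay (5.52%). Over all genes edgeR and limma-voom each called 0.0186% and DESeq2 0.213%. A median log2 change of 0.06 was found over the 36 genes (26 above 0), -0.06 over the monocyte genes (2 of 4) and 0.06 over the lysosomal genes (6 of 6), against 0 over all tested genes. Groups did not overlap for 1 gene, Ctsd, against 8.83% of all tested genes.

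Ctsd was at 1240, 1240 and 1310 CPM in KO-Clonidine against 1150, 1040 and 1160 CPM in KO-Control (log2 change 0.18, SE 0.11, adjusted p = 0.96 in edgeR). The log2 change of Apoe was 0.27 (SE 0.14, adjusted p = 0.94 in edgeR). Gpnmb was at 29.7, 47.2 and 38.2 CPM in KO-Clonidine against 53.3, 58.9 and 42.1 CPM in KO-Control (-0.42, SE 0.22, adjusted p = 0.94 in edgeR). Apoe and Gpnmb overlapped by 1 library each, and none of the 3 differences passed.

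Fcgr4 was at 45.1, 44.8 and 59.9 CPM in KO-Clonidine against 40.4, 46.4 and 35.6 CPM in KO-Control, a log2 change of 0.29 (SE 0.18, adjusted p = 0.97 in edgeR). Mertk had a log2 change of 0.17 (SE 0.1, adjusted p = 0.95 in edgeR). Both overlapped with the controls. Plac8 had the highest log2 change of the 36 genes, 0.32 (SE 0.37), which was -0.05 without KO-Clonidine 3, and Ccr2 (-0.25, SE 0.27) and Ly6c2 (-0.16, SE 0.43) were among the lowest. Erythroid genes (Hba-a1 and Alas2) summed to 328 to 1320 CPM in KO-Clonidine and 125 to 329 CPM in KO-Control, whereas Ptprc was at 121 to 131 CPM in KO-Clonidine and 116 to 129 CPM in KO-Control; whether the first of these bears on the macrophage genes was not tested.

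Whether clonidine acted differently in the hosts was tested as its effect in KO hosts minus that in WT hosts. edgeR called 0 of the 36 genes and 0% of all tested genes, DESeq2 and limma-voom called 0 of the 36 (0.227% and 0.0124% of all genes), and 3 of the 36 had an unadjusted p under 0.05 (1442 of all genes, 8.94%). These were Ctsd (difference 0.53 on the log2 scale, SE 0.15, adjusted p = 0.4 in edgeR), Gpnmb (-0.98, SE 0.31, adjusted p = 0.43 in edgeR) and Ccr2 (-0.84, SE 0.38, adjusted p = 0.54 in edgeR). Spp1 (0.42, SE 0.21), Apoe (0.41, SE 0.19) and Ly6c2 (-0.5, SE 0.6) followed in size. Ctsd was higher with clonidine in KO hosts and lower with it in WT hosts, and Gpnmb the reverse, but neither difference passed. For Fcgr4 the difference was -0.31 with an interval from -0.83 to 0.22, so an equal effect and a clearly smaller one in KO hosts are both within it.

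**Figure D4:**
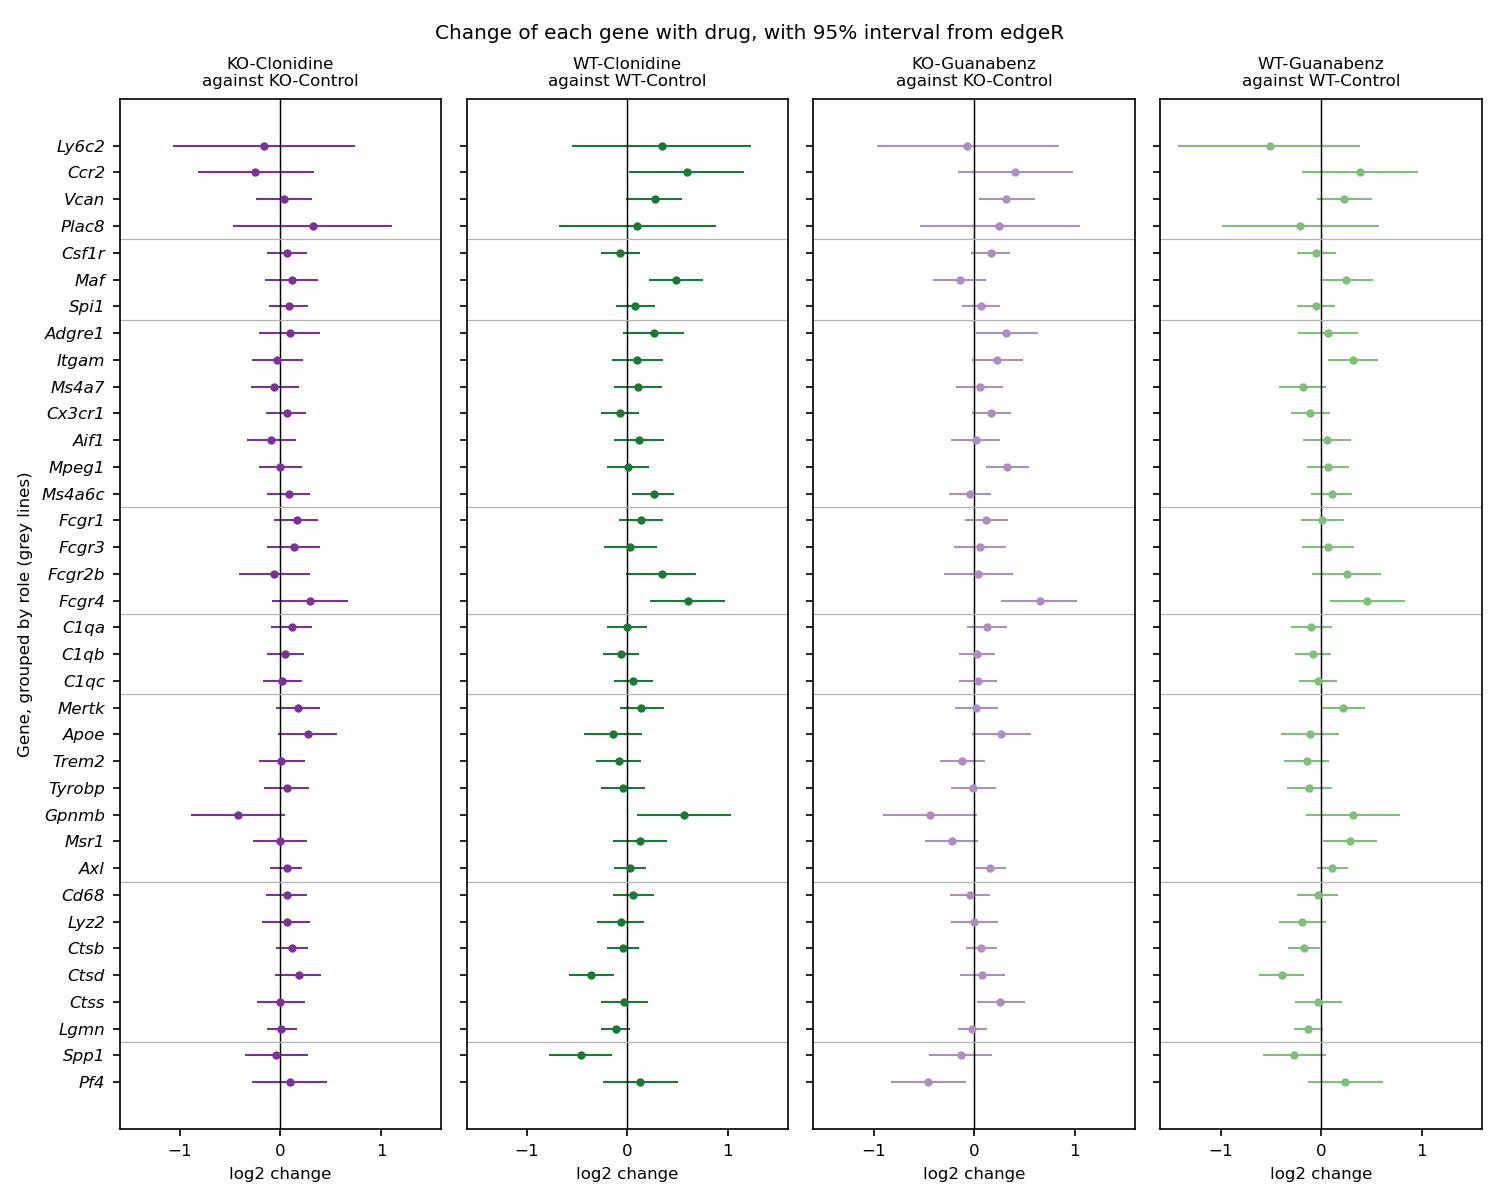
Log2 change of each gene with drug, in 4 panels, with the 95% interval from edgeR; genes run down the page by role, separated by grey lines. The monocyte genes Ly6c2, Plac8 and Ccr2 have the widest intervals, and Vcan does not. The C1q genes stay near 0 in each panel, and Fcgr4 lies to the right of 0 in all 4 panels, at 0.29 to 0.65.

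The effect of guanabenz in KO hosts was read from the KO-Guanabenz libraries, whose treatment entry reads Untreated, against KO-Control. Fcgr4, the perforin-like gene Mpeg1 and Adgre1 lay higher with guanabenz and Pf4, the gene of a platelet and macrophage chemokine, lower. edgeR called 0 of the 36 genes, against 0.0124% of all tested genes, DESeq2 called 2 (Fcgr4 and Mpeg1) and limma-voom called 1 (Fcgr4), where they called 3.49% and 2.13% of all genes. An unadjusted p under 0.05 was found for 7 of the 36 genes and 2437 of all genes (15.1%). Across the 36 genes the median log2 change was 0.06 (25 above 0), against -0.01 over all tested genes, and by role it was 0.29 for monocyte genes (3 of 4 above 0), 0.17 for surface and cytoplasmic markers (6 of 7) and -0.3 for the secreted factors (0 of 2).

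Fcgr4 was at 68.4, 75 and 48.6 CPM in KO-Guanabenz against 40.4, 46.4 and 35.6 CPM in KO-Control, a log2 change of 0.65 (SE 0.18, adjusted p = 0.13 in edgeR, 0.017 in DESeq2 and 0.034 in limma-voom). Mpeg1 was at 1050, 1130 and 887 CPM in KO-Guanabenz against 799, 804 and 842 CPM in KO-Control (0.33, SE 0.1, adjusted p = 0.16 in edgeR and 0.046 in DESeq2). Pf4 was at 27.6, 19.2 and 37.4 CPM in KO-Guanabenz against 45.2, 33.2 and 37.5 CPM in KO-Control (-0.46, SE 0.18, adjusted p = 0.24 in edgeR). Fcgr4 and Mpeg1 separated the groups, and for Pf4 the third KO-Guanabenz library reached the control range.

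Adgre1 had a log2 change of 0.32 (SE 0.14, adjusted p = 0.29 in edgeR). The log2 change was 0.41 for Ccr2 (SE 0.27), 0.32 for Vcan (SE 0.13), 0.25 for Plac8 (SE 0.37), -0.07 for Ly6c2 (SE 0.43), -0.44 for Gpnmb (SE 0.22) and -0.22 for Msr1, a scavenger receptor gene (SE 0.13). None of these passed. Groups did not overlap for 4 genes, Adgre1, Fcgr4, Mpeg1 and Axl, all higher with guanabenz, against 19.6% of all tested genes. The 5 fibroblast markers summed to 13600 to 15400 CPM in KO-Guanabenz and 8740 to 12500 CPM in KO-Control, and Ptprc was at 148 to 175 CPM in KO-Guanabenz and 116 to 129 CPM in KO-Control; their part in these values was not tested.

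In WT hosts, guanabenz against control gave a lower Ctsd and Ctsb, another lysosomal protease gene, and higher Fcgr4, Msr1 (log2 change 0.29, SE 0.13), Mertk (0.22, SE 0.1) and Itgam, the integrin alpha M gene. edgeR called 0 of the 36 genes and 0% of all tested genes, DESeq2 called 1 (Ctsd) and limma-voom 0, where they called 1.47% and 0.0372% of all genes. An unadjusted p under 0.05 was found for 6 of the 36 genes and 1845 of all genes (11.4%). Among the 36 genes 17 were above 0, with a median log2 change of -0.03 against 0.01 over all tested genes; the median was 0.01 for monocyte genes (2 of 4 above 0), 0.16 for Fc receptors (4 of 4) and -0.15 for lysosomal genes (0 of 6).

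Ctsd was at 1040, 1080 and 830 CPM in WT-Guanabenz against 1360, 1250 and 1260 CPM in WT-Control, a log2 change of -0.39 (SE 0.11, adjusted p = 0.22 in edgeR and 0.036 in DESeq2). Itgam was at 262, 296 and 320 CPM in WT-Guanabenz against 188, 269 and 244 CPM in WT-Control (0.32, SE 0.12, adjusted p = 0.32 in edgeR). Fcgr4 was at 52.4, 53.8 and 76 CPM in WT-Guanabenz against 39, 46.7 and 47.1 CPM in WT-Control (0.46, SE 0.18, adjusted p = 0.34 in edgeR). Ctsd and Fcgr4 separated the groups and Itgam did not; 67.2% of the 31-base words of Itgam are shared with the gene model Gm49368, which has no row in the table.

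Ccr2 had a log2 change of 0.39 (SE 0.27) and Gpnmb of 0.32 (SE 0.22), Spp1 of -0.27 (SE 0.15), Plac8 of -0.21 (SE 0.37) and Ly6c2 of -0.51 (SE 0.43), and Vcan of 0.23 (SE 0.13). None passed, and without WT-Control 2 the Ly6c2 value was 0.16 and the Plac8 value 0.32. Groups did not overlap for 8 genes, against 14.6% of all tested genes: Mertk, Fcgr2b, Fcgr4, Maf, Msr1 and Pf4 were higher with guanabenz, and Ctsb and Ctsd lower. The controls are those of the clonidine comparison, so the low Ctsd and the high Fcgr4 in both drug groups rest on the same 3 control libraries.

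The effect of guanabenz in KO hosts minus that in WT hosts gave 0 of the 36 genes called by edgeR, against 0.0062% of all tested genes, and 0 by DESeq2 and limma-voom, against 0.0807% and 0.0124%. An unadjusted p under 0.05 was found for 7 of the 36 genes and 920 of all genes (5.71%). The smallest p-values belonged to Ctsd (difference 0.48 on the log2 scale, SE 0.15, adjusted p = 0.87 in edgeR), Msr1 (-0.51, SE 0.18) and Pf4 (-0.69, SE 0.25), none of which passed, and the lowest value was that of Gpnmb (-0.76, SE 0.31). The monocyte genes had differences of 0.45 (SE 0.6) for Ly6c2, 0.46 (SE 0.53) for Plac8, 0.09 (SE 0.18) for Vcan and 0.02 (SE 0.38) for Ccr2. Fcgr4 differed by 0.19 with an interval from -0.34 to 0.72.

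**Figure D5:**
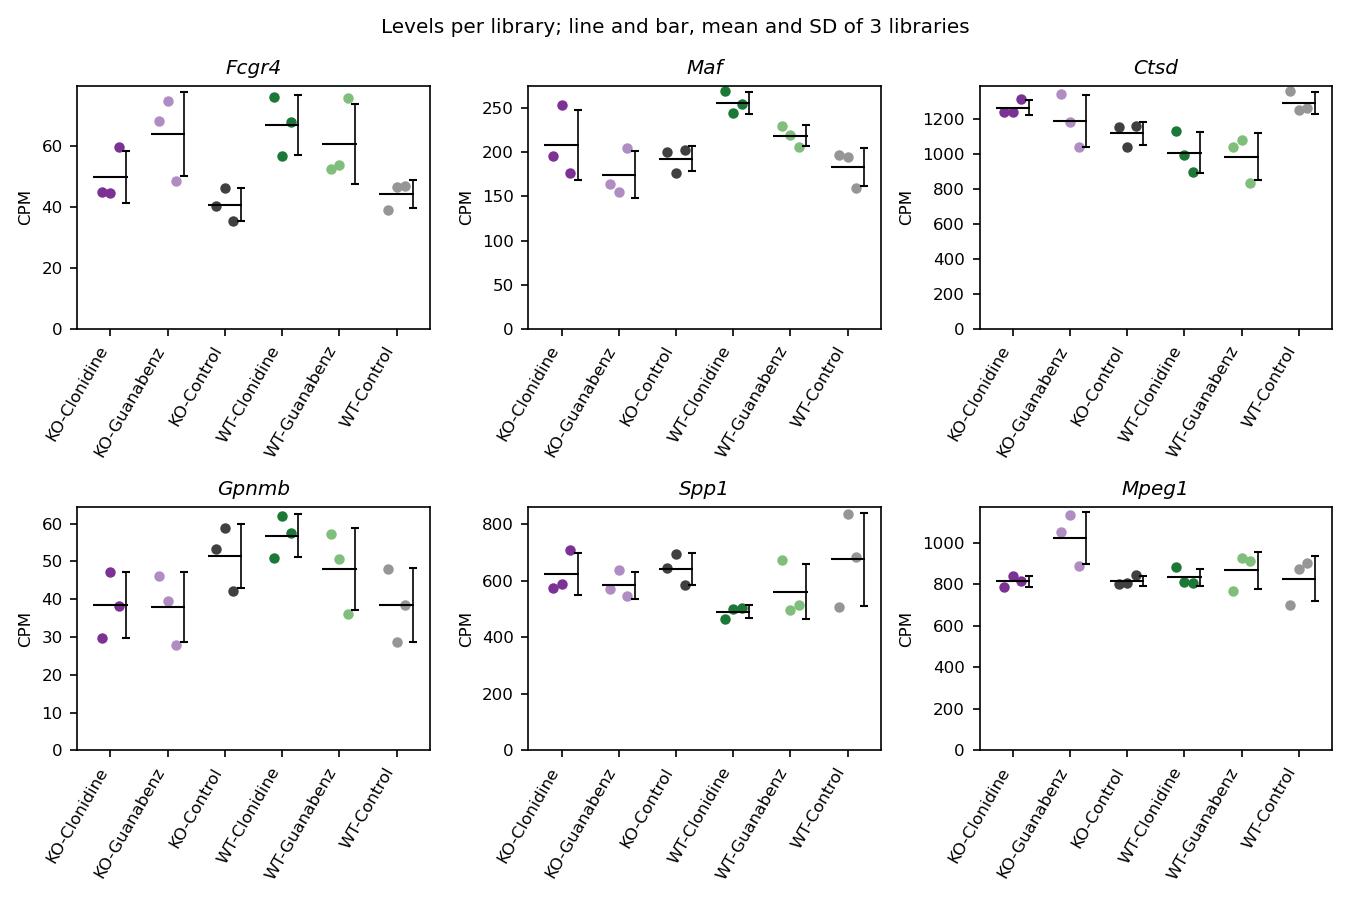
CPM of 6 genes in each library by group (axes start at 0); points are libraries, with the mean and SD of 3 libraries as line and bar. Mean Fcgr4 lies higher in each drug group than in the control group of its host, and Ctsd is at 898 to 1130 CPM in WT-Clonidine and 830 to 1080 CPM in WT-Guanabenz, against 1250 to 1360 CPM in WT-Control.

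Loss of host Adra2a without drug was read from KO-Control against WT-Control. edgeR called 0 of the 36 genes, against 0.0062% of all tested genes, DESeq2 and limma-voom also called 0 (0.106% and 0.0062% of all genes), and 0 of the 36 had an unadjusted p under 0.05 (594 of all genes, 3.68%). Ctsd was at 1150, 1040 and 1160 CPM in KO-Control against 1360, 1250 and 1260 CPM in WT-Control (log2 change -0.21, SE 0.11, adjusted p = 1 in edgeR). Gpnmb was at 53.3, 58.9 and 42.1 CPM in KO-Control against 48.1, 28.7 and 38.5 CPM in WT-Control (0.42, SE 0.22, adjusted p = 1 in edgeR). Lyz2 was at 2250, 2110 and 2610 CPM in KO-Control against 2320, 2810 and 2940 CPM in WT-Control (-0.21, SE 0.11, adjusted p = 1 in edgeR). None of the 3 differences passed. Groups did not overlap for 3 of the 36 genes, Ctsd and Spi1, which were lower in KO-Control, and Mertk, which was higher, against 8.33% of all tested genes. Of the 36 genes 12 were above 0, with a median log2 change of -0.04, and of the monocyte genes 1 of 4, with a median of -0.14. Pf4 had a log2 change of 0.18 (SE 0.17). The monocyte values were Ly6c2 at -0.29 (SE 0.42), Plac8 at -0.2 (SE 0.37), Vcan at -0.07 (SE 0.13) and Ccr2 at 0.19 (SE 0.27).

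Averaged over the 3 treatments, KO against WT gave 0 of the 36 genes called by edgeR, against 0.416% of all tested genes, and 0 by DESeq2 and limma-voom, against 4.31% and 2.24%. An unadjusted p under 0.05 was found for 6 of the 36 genes and 2810 of all genes (17.4%). Ctsb was at 1590 to 1900 CPM in KO libraries and 1410 to 1750 CPM in WT libraries (log2 change 0.12, SE 0.04, adjusted p = 0.17 in edgeR). Maf was at 155 to 253 CPM in KO libraries and 159 to 269 CPM in WT libraries (-0.18, SE 0.07, adjusted p = 0.21 in edgeR), and Msr1 at 73.1 to 107 CPM in KO libraries and 76.9 to 123 CPM in WT libraries (-0.17, SE 0.07, adjusted p = 0.25 in edgeR). The ranges overlapped widely in all 3 genes. Ctsd (0.13, SE 0.06), Apoe (0.14, SE 0.08), Ly6c2 (-0.31, SE 0.25), Plac8 (0.02, SE 0.21), Vcan (-0.12, SE 0.07) and Ccr2 (-0.08, SE 0.16) did not pass either. Csf1r differed by 0.04 on the log2 scale with an interval from -0.07 to 0.16, and C1qa by 0.01 with an interval from -0.11 to 0.12.

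Clonidine, an imidazoline, was set against guanabenz, a guanidine derivative, in WT hosts; without doses it is not known whether the exposures matched. edgeR called 0 of the 36 genes and 0% of all tested genes, DESeq2 and limma-voom called 0 of the 36 (0.0248% and 0.0062% of all genes), and 1 of the 36 had an unadjusted p under 0.05 (814 of all genes, 5.05%). That gene was Ms4a7, a membrane-spanning protein gene of macrophages, at 205, 176 and 160 CPM in WT-Clonidine against 124, 156 and 163 CPM in WT-Guanabenz (log2 change 0.29, SE 0.11, adjusted p = 0.96 in edgeR). Ly6c2 had the highest log2 change, 0.86, with an interval from -0.05 to 1.76, and Itgam (-0.23, SE 0.12), Spp1 (-0.2, SE 0.15) and Msr1 (-0.16, SE 0.13) the lowest. The log2 change was 0.3 for Plac8 (SE 0.37), 0.21 for Ccr2 (SE 0.27), 0.03 for Vcan (SE 0.13), 0.14 for Fcgr4 (SE 0.18) and 0.04 for Ctsd (SE 0.11). The intervals of Fcgr4, -0.23 to 0.51, and of Ctsd, -0.19 to 0.26, hold no difference as well as moderate ones in either direction.

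A test of any difference among the 6 groups called 0 of the 36 genes in edgeR, against 2.02% of all tested genes, 4 in DESeq2 (Itgam, Fcgr4, Maf and Ctsd) and 7 in limma-voom (those 4 with Mpeg1, Msr1 and Pf4). Over all genes DESeq2 called 13.6% of those it gave an adjusted p and limma-voom 19.5%, so neither count among the 36 stood above its background. An unadjusted p under 0.05 was found for 8 of the 36 genes (22.2%) and 3102 of all genes (19.2%), so the share among macrophage genes was close to that of all genes.

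Because Fcgr4 was above control with each drug in each host, the 4 drug groups were compared with the 2 control groups, a comparison chosen after these values were seen. Since that pattern prompted it, and the drug groups of a host share 3 control libraries, its values for Fcgr4 are a description and not independent support. Fcgr4 lay above every control library in 10 of 12 drug libraries, with a log2 change of 0.5 (interval 0.27 to 0.73). edgeR called 0 of the 36 genes, against 0.211% of all tested genes, with Fcgr4 at an adjusted p of 0.068 in edgeR, and DESeq2 and limma-voom called 1, Fcgr4 (adjusted p = 0.0011 in DESeq2 and 0.027 in limma-voom), where they called 5.19% and 2.8% of all genes. Fcgr4 was also called by edgeR without KO-Guanabenz 3 (adjusted p = 0.043), while with all KO-Guanabenz libraries left out its change was 0.41 (adjusted p = 0.36 in edgeR), and with them read as KO-Control 0.23 (adjusted p = 0.93 in edgeR). Unadjusted, 7 of the 36 genes and 2520 of all genes (15.6%) had a p under 0.05. Vcan (0.22, SE 0.08, adjusted p = 0.21 in edgeR) and Spp1 (-0.23, SE 0.09, adjusted p = 0.24 in edgeR) followed, with Ccr2 at 0.29 (SE 0.17), Ctsd at -0.12 (SE 0.06) and Ly6c2 at -0.1 (SE 0.26). Core macrophage genes were near 0, with Csf1r at 0.03 (SE 0.06) and C1qa at 0.04 (SE 0.06). The Fc receptors Fcgr1, Fcgr2b and Fcgr3 did not reach the change of Fcgr4, the highest of them being Fcgr2b at 0.14 (SE 0.1).

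Set against the other macrophage genes rather than against all RNA, Fcgr4 kept the same order. Relative to the mean centred level of the other 31 macrophage genes it was at -0.11 ± 0.28 in KO-Clonidine and 0.24 ± 0.28 in KO-Guanabenz, against -0.36 ± 0.21 in KO-Control (log2 scale, SD, n = 3 each). The WT values were 0.29 ± 0.14 with clonidine and 0.18 ± 0.29 with guanabenz, against -0.25 ± 0.11 in WT-Control. Ctsd on this scale was at -0.22 ± 0.13 in WT-Clonidine and -0.22 ± 0.23 in WT-Guanabenz, against 0.22 ± 0.12 in WT-Control. Group means of the macrophage genes lay only between -0.04 and 0.04, so this scale could hardly change the order of groups for either gene. It adds no support beyond the CPM values.

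Genes of the same pathway outside the 36 were read from 3 further lists, of 15 monocyte genes, 30 macrophage genes and 10 ligands that recruit or sustain macrophages, all of which were tested. Not every listed gene is restricted to the cell type of its list, Lyz1 and Cd63 among them. In WT-Clonidine against WT-Control 11 of the 15 monocyte genes were above 0, with a median log2 change of 0.25, led by the integrin gene Itga4 (0.48, SE 0.12, adjusted p = 0.13 in edgeR) and the chitinase-like gene Chil3 (1.28, SE 0.45, adjusted p = 0.25 in edgeR). Of the macrophage genes 19 of 30 were above 0 with a median of 0.12, the smallest p-values being those of the complement receptor gene C3ar1 (0.4, SE 0.09, adjusted p = 0.11 in edgeR) and Ms4a6d (0.28, SE 0.08, adjusted p = 0.16 in edgeR). Of the ligands 4 of 10 were above 0, with a median of -0.06, and the growth factor genes Csf1 (-0.14, SE 0.09) and Csf2 (0.91, SE 0.62) had the smallest p-values. edgeR called 0 of each list, with 4 monocyte genes, 9 macrophage genes and 0 ligands at an unadjusted p under 0.05, as had 12.9% of all tested genes. DESeq2, with 353 calls over all genes, called Itga4, C3ar1 and Ms4a6d, and limma-voom, with 773, called Itga4, Chil3, C3ar1 and the sterol-sensing nuclear receptor gene Nr1h3.

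In KO-Clonidine against KO-Control edgeR, DESeq2 and limma-voom called 0 of each list, with 2 monocyte genes, 2 macrophage genes and 3 ligands at an unadjusted p under 0.05 in edgeR (5.52% of all genes). Monocyte and macrophage genes each had a median log2 change of -0.02, and the ligands one of 0.33 with 9 of 10 above 0. Among the ligands the monocyte attractant gene Ccl7 had a log2 change of 0.67 (SE 0.23, adjusted p = 0.87 in edgeR) and Il34, whose product also acts on the receptor encoded by Csf1r, one of 0.36 (SE 0.14, adjusted p = 0.88 in edgeR). The monocyte genes with the smallest p-values were Nr4a1 (0.38, SE 0.16) and Lyz1 (-0.51, SE 0.22), and the macrophage genes were Itgax (-0.64, SE 0.27) and C5ar1 (0.23, SE 0.1), none of which passed. For the effect of clonidine in KO hosts minus that in WT hosts all 3 tools called 0 of each list, with 4 monocyte genes, 3 macrophage genes and 3 ligands at an unadjusted p under 0.05 in edgeR (8.94% of all genes). The smallest p-values were those of Itga4 (-0.5, SE 0.17), Lyz1 (-0.73, SE 0.31), C3ar1 (-0.37, SE 0.13), Nr1h3 (-0.68, SE 0.25), Il34 (0.44, SE 0.2) and Cx3cl1, the gene of the ligand of the receptor encoded by Cx3cr1 (0.74, SE 0.33).

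In KO-Guanabenz against KO-Control edgeR called 0 of each list, with 3 monocyte genes, 8 macrophage genes and 2 ligands at an unadjusted p under 0.05 (15.1% of all genes). DESeq2, with 443 calls over all genes, called Cd63, Slc11a1, Fabp5 and Pros1, and limma-voom, with 343, called Cd63, Abca1 and Pros1. Cd63, a lysosomal membrane gene, had a log2 change of -0.57 (SE 0.1, adjusted p = 0.055 in edgeR), and Pros1, a ligand gene of the receptor encoded by Mertk, one of 0.5 (SE 0.14, adjusted p = 0.14 in edgeR). Slc11a1, a phagosomal metal transporter gene (0.45, SE 0.14), Cx3cl1 (0.66, SE 0.24), S100a4 (-0.42, SE 0.14) and Lyz1 (-0.62, SE 0.22) followed. The list medians were -0.03 for monocyte genes, -0.05 for macrophage genes and 0.1 for the ligands.

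In WT-Guanabenz against WT-Control edgeR, DESeq2 and limma-voom called 0 of each list, with 2 monocyte genes, 4 macrophage genes and 0 ligands at an unadjusted p under 0.05 in edgeR (11.4% of all genes). Itga4 (0.41, SE 0.12), Chil3 (1.34, SE 0.45), Cd63 (-0.24, SE 0.1), the mannose receptor gene Mrc1 (0.38, SE 0.16), Csf2 (1.19, SE 0.63) and Ccl8 (-0.31, SE 0.24) had the smallest p-values, and the medians were 0.13, 0.05 and -0.02 for monocyte genes, macrophage genes and ligands. For the effect of guanabenz in KO hosts minus that in WT hosts all 3 tools again called 0 of each list, with 3, 6 and 1 genes of the lists, in that order, at an unadjusted p under 0.05 in edgeR (5.71% of all genes). The smallest p-values were those of Chil3 (-1.78, SE 0.64), S100a4 (-0.48, SE 0.2), the scavenger receptor gene Cd163 (-1.64, SE 0.63), the complement receptor gene Vsig4 (-1.67, SE 0.65), Pros1 (0.52, SE 0.2) and Cx3cl1 (0.56, SE 0.33).

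KO-Control against WT-Control and WT-Clonidine against WT-Guanabenz also gave 0 of each list by all 3 tools. At an unadjusted p under 0.05 edgeR found 1 monocyte gene, 2 macrophage genes and 1 ligand in KO-Control against WT-Control (3.68% of all genes), and 0, 4 and 2 genes of those lists in WT-Clonidine against WT-Guanabenz (5.05% of all genes). In KO-Control against WT-Control 1 of 10 ligands was above 0, with a median log2 change of -0.25, and S100a4 (0.36, SE 0.14), Lyz1 (-0.31, SE 0.22), Fabp5 (0.4, SE 0.16), Cd63 (0.23, SE 0.1), Pros1 (-0.4, SE 0.14) and Ccl7 (-0.42, SE 0.23) had the smallest p-values. In WT-Clonidine against WT-Guanabenz those were S100a4 (0.29, SE 0.14), Ms4a4c (0.41, SE 0.23), Nr1h3 (0.66, SE 0.18), C3ar1 (0.28, SE 0.09), Csf1 (-0.24, SE 0.09) and Ccl8 (0.61, SE 0.24).

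Averaged over treatments, KO against WT gave 1 call by edgeR in the list of 15 monocyte genes, Lyz1, against 0.416% of all tested genes. edgeR called 0 of the 30 macrophage genes and 10 ligands, where 7 and 3 genes had an unadjusted p under 0.05 (17.4% of all genes). DESeq2 and limma-voom, with 601 and 362 calls over all genes, also called Lyz1, and each called Fabp5, a fatty acid-binding protein gene (0.39, SE 0.09, adjusted p = 0.061 in edgeR), and the scavenger receptor gene Marco (-0.96, SE 0.3, adjusted p = 0.13 in edgeR); Pros1 (-0.19, SE 0.08) and Ccl8 (-0.3, SE 0.14) led the ligands.

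Lyz1, the lysozyme gene next to Lyz2, was at 4.4, 5.13 and 4.3 CPM in KO-Clonidine, 4.6, 2.6 and 5.61 CPM in KO-Guanabenz and 7.91, 5.14 and 6.73 CPM in KO-Control, against 9.67, 8.09 and 10.7 CPM in WT-Clonidine, 9.19, 7.28 and 7.14 CPM in WT-Guanabenz and 7.79, 9.25 and 7.5 CPM in WT-Control. Averaged over treatments it fell by 0.74 on the log2 scale in KO hosts (SE 0.13, adjusted p = 0.019 in edgeR), and all but 1 KO library lay below every WT library. Over 27 alternative settings the change lay between -0.82 and -0.66 and was called in 21, with adjusted p up to 0.13 when the KO-Guanabenz libraries were read as KO-Control. Lyz2, the abundant paralogue, did not pass (-0.11, SE 0.06, adjusted p = 0.39 in edgeR), and reads shared by the paralogues can move between them. Lyz1 is not a specific marker of monocytes, so its call is not read as a change of monocytes.

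In the comparison of all drug groups with all control groups edgeR called 0.211% of all tested genes and 1 of the 30 macrophage genes, Cd63. It was at 1170, 1290 and 1130 CPM in KO-Clonidine, 919, 880 and 882 CPM in KO-Guanabenz, 919, 931 and 1030 CPM in WT-Clonidine and 907, 1010 and 958 CPM in WT-Guanabenz, against 1190, 1410 and 1390 CPM in KO-Control and 1300, 1160 and 946 CPM in WT-Control. It fell by 0.3 on the log2 scale with drug (SE 0.06, adjusted p = 0.046 in edgeR), with its lowest values in KO-Guanabenz. Bulk counts do not show which cells made the Cd63 transcripts. The call was made in 8 of 27 alternatives, and with the KO-Guanabenz libraries left out the change was -0.2 (adjusted p = 0.5 in edgeR). With those libraries read as KO-Control, as their Untreated entry has it, the change was -0.07 (adjusted p = 0.99 in edgeR). DESeq2 and limma-voom, with 626 and 452 calls over all genes, each called Cd63, Slc11a1 and Fabp5 (-0.34, SE 0.1, adjusted p = 0.11 in edgeR). Of the 15 monocyte genes edgeR called 0, with 2 at an unadjusted p under 0.05 (15.6% of all genes), and DESeq2 and limma-voom called Itga4 (0.28, SE 0.07, adjusted p = 0.095 in edgeR), followed by Chil3 (0.72, SE 0.28). Of the 10 ligands all 3 tools called 0, with 1 at an unadjusted p under 0.05 in edgeR, Pros1 (0.24, SE 0.09), ahead of Cx3cl1 (0.31, SE 0.14).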

How the data were processed

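RNA from 18 tumour libraries was quantified by the authors as estimated counts per gene with kallisto 0.46.0 after Trim Galore 0.6.5, on GRCm38, per the submitters' processing notes; the deposited values are whole numbers, so rounding changed nothing. Annotation and strandedness are not given in the sources used here. Symbols came from RefSeq GRCm38.p6 (20994 of 21015 genes; the 21 others held at most 0.0216% of a library), and lengths and shared 31-base words from GENCODE M21.

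Genes passing filterByExpr (16125) were fitted in edgeR 4.0.16 (R 4.3.3) with TMM scaling and 6 group means over all 18 libraries (residual degrees of freedom 12, prior 4.35). Its quasi-likelihood test, taken as two-sided, was Benjamini-Hochberg adjusted over all tested genes, and an adjusted p under 0.05 was a call. The biological coefficient of variation was 0.145, so at totals of 54.7 to 491.1 (in units of 1e6 counts) the spread between libraries, not counting error, set the precision. CPM use TMM-scaled totals, and log2 CPM a prior count of 2. Alternatives were DESeq2 1.42.0, limma-voom 3.58.1, RLE scaling, other filters, smaller fits, a replicate block, each library left out, and the KO-Guanabenz libraries left out or counted as KO-Control. Everywhere here, limma-voom was run with quality weights, which weight each library by its estimated quality. The contrast of all drug with all control groups, and a Y-linked transcript term, were added after the data were seen. Scripts were tested on simulated data.

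The genes, lists and tests were chosen with earlier results of these data known. Values per library were given for the 4 monocyte genes and 8 macrophage markers in all groups and for the 3 smallest p-values of a comparison; the 3 highest and 3 lowest changes were named, and of each further list its called genes or else the 2 with the smallest p. Fcgr4 and Ctsd in comparisons outside this rule, the genes named for a call by DESeq2 or limma-voom, and the cell type markers set beside a result were chosen after their values were seen. Correlations between libraries showed no pairing by replicate number, which does not exclude one.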

Additional observations from a re-analysis of the deposited data

Results flagged for a closer look

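Some genes lay on opposite sides of the controls with the same drug in the hosts, in that every drug library of one host lay above its control mean and every drug library of the other host below it. With clonidine this held for 4 of the 36 genes. The effect in KO hosts minus that in WT hosts, on the log2 scale, was 0.53 for Ctsd (SE 0.15, adjusted p = 0.4 in edgeR), 0.41 for Apoe (SE 0.19, adjusted p = 0.56 in edgeR), -0.98 for Gpnmb (SE 0.31, adjusted p = 0.43 in edgeR) and -0.21 for Aif1, a calcium-binding protein gene of macrophages (SE 0.16, adjusted p = 0.73 in edgeR). With guanabenz it held for 3 genes, with differences of 0.28 for Cx3cr1 (SE 0.13), 0.24 for Ctsb (SE 0.1) and -0.69 for Pf4 (SE 0.25), each at an adjusted p of 0.87 in edgeR. None of the 7 differences passed the test of the difference itself. Over all tested genes the same pattern held for 9.45% with clonidine and 5.11% with guanabenz, so the counts among macrophage genes are near the background. The guanabenz values rest on the KO-Guanabenz libraries, whose labels conflict.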

How the results depend on the processing

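edgeR as described called 0 of the 36 genes in every comparison, and 0 with a replicate block. Deviations from group means of same-numbered libraries correlated between -0.331 and 0.253, so they showed no pairing by replicate number. Such correlations cannot exclude a pairing. DESeq2 called 3 of the 36 genes and limma-voom 3 in WT-Clonidine against WT-Control (Fcgr4, Maf and Ctsd, with adjusted p over all alternatives of 0.037 to 0.52, 0.017 to 0.44 and 0.04 to 0.49). In WT-Guanabenz against WT-Control DESeq2 called 1 (Ctsd, 0.036 to 0.69), and in KO-Guanabenz against KO-Control DESeq2 called 2 (Fcgr4, 0.017 to 0.47, and Mpeg1, 0.046 to 0.47) and limma-voom 1. Among the 6 groups DESeq2 called 4, limma-voom 7 and the Y-linked term 1 (Ctsd), with 0 to 2 when 1 library was left out (Maf without KO-Clonidine 2, Fcgr4 and Maf without KO-Guanabenz 3). For all drug against all control groups DESeq2 called 1 and limma-voom 1 (Fcgr4), with 0 to 1 when 1 library was left out; the change of Fcgr4 was 0.23 (adjusted p = 0.93 in edgeR) with KO-Guanabenz counted as KO-Control. Over all tested genes edgeR, DESeq2 and limma-voom called 0, 353 and 773 in WT-Clonidine against WT-Control, 3, 29 and 3 in KO-Clonidine against KO-Control, 0, 173 and 6 in WT-Guanabenz against WT-Control, 2, 443 and 343 in KO-Guanabenz against KO-Control, 67, 601 and 362 between hosts, 34, 626 and 452 between drug and control, and 326, 1898 and 3141 among the 6 groups; the cause was not tested. The edgeR counts of the last 3 were 67, 34 and 326 genes with KO-Guanabenz as titled, 2, 1 and 135 with those libraries left out, 3, 0 and 5 with them counted as KO-Control, and 0 and 158 for the last pair with the replicate block. Some directions turned. With KO-Guanabenz counted as KO-Control, KO-Clonidine against KO-Control gave -0.07 for Fcgr4 and -0.14 for Vcan, KO-Control against WT-Control gave -0.03 for Pf4 and 0.1 for Vcan, and KO against WT gave -0.03 for Plac8 (-0.09 with KO-Guanabenz left out). limma-voom gave -0.29 for the guanabenz difference of Ccr2 between hosts (0 with the replicate block), 0.09 for Ly6c2 in KO-Control against WT-Control and 0.04 for Ly6c2 in drug against control. When 1 library was left out, WT-Clonidine against WT-Control ranged over -0.1 to 1.01 for Ly6c2 and -0.13 to 0.63 for Plac8, KO-Clonidine against KO-Control over -0.05 to 0.58 for Plac8, -0.48 to 0.04 for Ly6c2 and -0.07 to 0.13 for Vcan, and the clonidine difference between hosts over -0.31 to 0.49 for Plac8. WT-Guanabenz against WT-Control ranged over -0.81 to 0.16 for Ly6c2 and -0.61 to 0.32 for Plac8, KO-Guanabenz against KO-Control over -0.24 to 0.02 for Ly6c2, and the guanabenz difference over -0.07 to 0.87 for Plac8, -0.23 to 0.73 for Ly6c2, -0.23 to 0.24 for Ccr2 and -0.05 to 0.21 for Vcan. KO-Control against WT-Control ranged over -0.03 to 0.44 for Ccr2, -0.58 to 0.38 for Ly6c2, -0.46 to 0.32 for Plac8 and -0.15 to 0.03 for Vcan, KO against WT over -0.1 to 0.2 for Plac8 and -0.19 to 0 for Ccr2, WT-Clonidine against WT-Guanabenz over -0.02 to 0.1 for Vcan, and drug against control over -0.25 to 0.24 for Ly6c2. The monocyte minus macrophage shift moved by less than the SD of 0.27 between libraries in every alternative run; for WT-Clonidine against WT-Control it lay between 0.11 and 0.55. Fits to only the groups compared were not run for the averages over hosts or treatments, which use all groups.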
